A study of Mus musculus with 4 samples.

Results

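The data set out how far the transcriptional response to dexamethasone (Dex) differed between Neuro-2a (N2a) cells, a mouse neuroblastoma line, with and without knockdown of Arglu1. The measure was the log2 ratio of Dex to vehicle (Veh) in siArglu1 cells minus the same ratio in siControl cells, taken for each gene and here called the difference. A positive difference means that the Dex ratio was larger after knockdown. Of 22667 genes in the count table, 12497 had at least 75 reads summed over the 4 libraries and form the set described here. Of these, 10252 had 1000 or more reads and are described separately from the 2245 with fewer. Values of the 4 libraries are given in one order throughout, the siControl pair first and Veh before Dex within each pair.

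Cells were transfected for 48 h with siRNA against Arglu1 or with non-targeting control siRNAs and received 100 nM Dex or ethanol vehicle for 4 h. All 4 groups are the same unmodified cell line in serum-containing medium. Each group is 1 library of polyA RNA in which 3 cultures were pooled, and the study's methods name a single Arglu1 siRNA against a control pool. There is therefore no replicate spread and no test of any gene, and intervals below are 95% intervals that cover the counting error of the 4 read counts only.

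Dexamethasone is a synthetic agonist of the glucocorticoid receptor (GR), a nuclear receptor that moves into the nucleus on binding hormone and regulates genes near glucocorticoid response elements. Known targets across many cell types include Fkbp5, Per1, Sgk1 and Tsc22d3. ARGLU1 is a nuclear protein with an arginine- and serine-rich N-terminal region and a glutamate-rich C-terminal region, studied as a coactivator of GR and as a modulator of splicing.

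The libraries held between 66074574 and 86541444 reads on genes. Arglu1, the targeted gene, was at 152 and 165 CPM (reads per 1000000 reads on genes, scaled by TMM) in siControl cells and at 40.5 and 37.6 in siArglu1 cells. Its log2 ratio for knockdown was -1.91 in Veh and -2.13 in Dex, a difference of -0.22 (-0.31 to -0.14). Among markers of sympathetic neuroblasts, Tubb3 was between 919 and 1317 CPM, Hand2 between 473 and 733, Chga between 343 and 486 and Chgb between 401 and 473 over the 4 libraries. Nefl and Nefm were near 0 throughout. Markers of fibroblasts, glia, macrophages, endothelium and epithelium summed to at most 7.20 CPM for any list in any library.

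Few well-counted genes differed by a factor of 2 or more in their Dex ratio. Among the 10252 genes with 1000 or more reads, 2 had a difference of 1 or more on the log2 scale, Hectd4 and Abl2 (0.0195%), and 1 had a difference of -1 or less, Slc10a6 (0.00975%). At a smaller limit of 0.58 on the log2 scale, 68 genes were higher (0.663%) and 8 were lower (0.0780%). The SD of the difference over these genes was 0.19, against a median counting error (SE) of 0.05. The counting interval lay above 0 in 28.3% of them and below 0 in 27.0%, so small differences between the 4 libraries were above counting error in many genes. Without replicate libraries this does not show that the treatments made them.

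Genes with fewer reads gave most of the large values, with 79 of 2245 past 1 (3.52%) and 43 past -1 (1.92%) among those under 1000 reads. Of the 81 genes with a difference of 1 or more among all 12497 (0.648%) and the 44 with -1 or less (0.352%), 61 and 42 had 75 or more but under 200 reads. In that band 6.98% of genes were past the limit upwards and 4.81% downwards, with an SD of 0.66 against a median counting SE of 0.56. From 200 to under 1000 reads the shares were 1.31% and 0.0729%. Above 5000 reads no gene of 7932 passed 1 in either direction, and the values ran from -0.56 to 0.82.

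**Figure D1:**
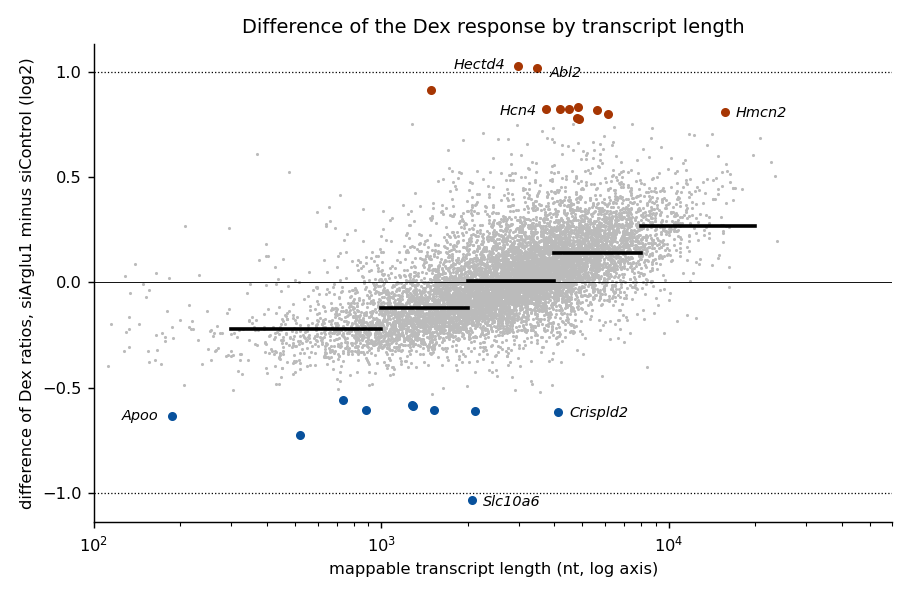
Each grey point is 1 gene with 1000 or more reads, by mappable transcript length (nt, log axis) and difference of the log2 Dex ratios; the 12 highest are red-brown, the 12 lowest blue, and black bars are medians of 5 length classes. Medians rise from -0.22 under 1 kb to 0.27 over 8 kb; genes with a mappable length under 100 nt lie outside the axis, among them Rps18-ps3, and Rps3a3 has no length.

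The difference followed transcript length. Mappable length is the number of positions of a gene's transcript to which reads can be assigned uniquely, computed here from the deposited reads and corrected RPKM (cRPKM). Over 10248 genes with 1000 or more reads and a length, Spearman's rho of the difference with mappable length was 0.66. These are values across genes that share libraries and are not independent replicates. With the longest annotated transcript in place of mappable length rho was 0.63, with the number of exons 0.46, with genomic span 0.43 and with GC content 0.09.

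The relation to length was larger in the siArglu1 pair. The siArglu1 Dex ratio had a rho of 0.67 with mappable length and the siControl Dex ratio had -0.22. In 860 genes under 1 kb, the median siArglu1 Dex ratio was -0.19 and the median siControl Dex ratio 0.03. In 404 genes over 8 kb these were 0.23 and -0.04. The difference lay above 0 in 9.19% of the genes under 1 kb, 18.8% of those from 1 to 2 kb, 51.5% from 2 to 4 kb, 85.3% from 4 to 8 kb and 95.3% over 8 kb. Over all genes with 1000 or more reads it lay above 0 in 50.8% and below in 49.2%.

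**Figure D2:**
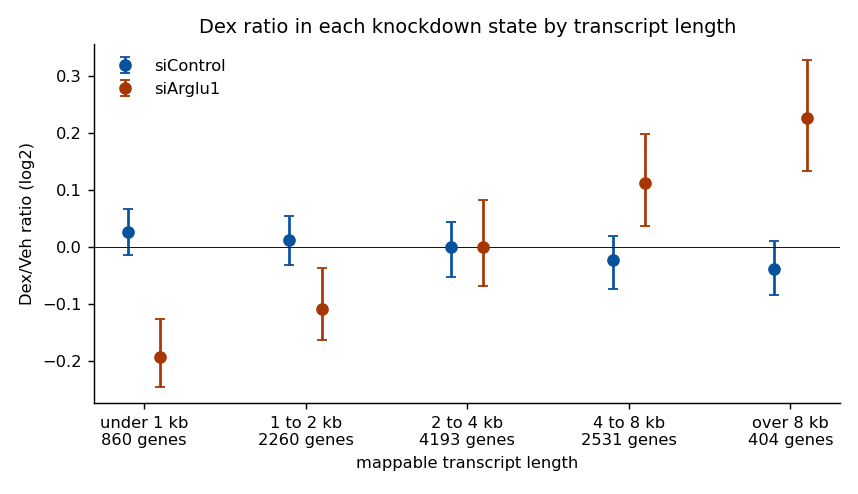
Median log2 Dex/Veh ratio (points) and quartiles (bars) over genes with 1000 or more reads in 5 classes of mappable length, in siControl (blue) and siArglu1 (red-brown) cells. The siArglu1 medians rise from -0.19 to 0.23 while the siControl medians fall from 0.03 to -0.04.

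Levels in single libraries show where along this scale each library stood. Relative to the mean of the 4 libraries, the level of a gene had a rho with length of 0.40 and 0.35 in the siControl pair, -0.52 in siArglu1 Veh and -0.16 in siArglu1 Dex. Transcripts of 4 to 8 kb took 22.4%, 22.1%, 18.02% and 19.7% of the reads in library order, and transcripts under 1 kb took 10.4%, 10.6%, 13.3% and 12.04%. siArglu1 Veh was thus the library with the fewest reads on long transcripts, and siArglu1 Dex lay between it and the siControl pair. siArglu1 Veh is the denominator of the siArglu1 Dex ratio, and its part in the difference was not tested.

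Junction reads placed along the transcript moved with the same libraries. In 5028 genes with 1000 or more reads, alternative splice site events at different positions each had 20 or more junction reads in every library. The 5′-most and the 3′-most of them were compared, and these need not lie near the ends of the transcript. The median log2 ratio of junction reads at the 5′-most over the 3′-most event was -0.40 and -0.43 in the siControl pair, -0.69 in siArglu1 Veh and -0.60 in siArglu1 Dex. In genes over 8 kb these medians were -0.65, -0.66, -1.20 and -0.96. The change with Dex in siArglu1 minus that in siControl had a median of 0.14 over all of these genes, 0.04 under 1 kb and 0.21 over 8 kb, and was above 0 in 65.1% of genes. Junction reads at the 5′-most event were thus fewest, relative to the 3′-most event, in siArglu1 Veh. That library also had the fewest reads on long transcripts. Whether this is a change in the RNA of the cells or in the RNA that entered the library cannot be told apart with 1 library a group.

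**Figure D3:**
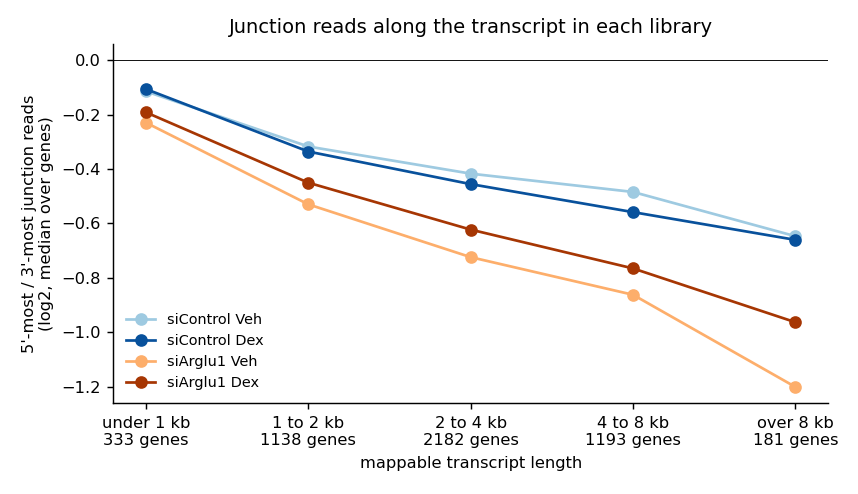
Median log2 ratio of junction reads at the 5′-most over the 3′-most splice site event (vertical axis) by class of mappable length, 1 line a library. The siArglu1 Veh line is the lowest in every class and reaches -1.20 over 8 kb, where the siControl libraries are at -0.65 and -0.66.

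The genes past 0.58 were long at one end and short at the other. Of the 68 higher genes, 47 (69.1%) had a mappable length over 4 kb, against 28.6% of all genes with 1000 or more reads, and 5 (7.35%) were under 2 kb, against 30.4%. Of the 8 lower genes, 1 was over 4 kb and 5 were under 2 kb. The median length was 5088 nt in the higher and 1406 nt in the lower genes. In 61 of the 68 higher genes the Dex ratio reached 0.29 in size in siArglu1 cells only, in 4 in siControl only, in 2 in opposite directions and in 1 in the same direction. The 8 lower genes split as 3 in siArglu1 only, 1 in siControl only, 1 in opposite directions and 3 in the same direction. Over all genes with 1000 or more reads the Dex ratio had an SD of 0.17 in siArglu1 and 0.11 in siControl cells. The limit of 0.29 was thus passed more readily in siArglu1 cells, and the split is not a trait of these genes alone.

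With a smooth trend on length removed, the SD of the difference fell from 0.19 to 0.15 and its variance by 40.9%. The trend was fitted on all 12484 genes with 75 or more reads and a length, which include the genes described here. At 0.58, 35 genes were then higher and 4 lower, and these held 28 of the 68 and 2 of the 8. The 35 had a median length of 2956 nt against 2823 nt over all genes. They were lower in siArglu1 Veh than in siControl Veh in 31 of 35 cases, against 4970 of 10248 over all genes. Their median log2 ratio for knockdown in Veh was -1.09, against 0.02 over all genes. As siArglu1 Veh and siControl Veh both enter the difference, this ratio is not independent of it.

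The 12 genes with the largest positive difference shared one pattern over the 4 libraries. They were chosen for this value, so the following describes them and tests nothing. All 12 had a positive Dex ratio in siArglu1 cells, from 0.52 to 0.95, and 11 had a slightly negative one in siControl cells, the range over the 12 being -0.27 to 0.08. All 12 were lower in siArglu1 Veh than in siControl Veh, with log2 ratios for knockdown between -0.42 (Hcn4) and -2.0 (Atp7a). Except for Hcn4, siArglu1 Dex lay between siArglu1 Veh and the siControl libraries. The counting interval of the difference was above 0 for each of the 12.

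Hectd4 (Gm15800 in the count table, ENSMUSG00000042744, chromosome 5) encodes a very large protein with a HECT ubiquitin ligase domain. It was at 17.9 and 16.9 CPM in siControl Veh and Dex and at 4.56 and 8.79 CPM in siArglu1 Veh and Dex. The siControl libraries were close and both siArglu1 libraries were below them. The difference was 1.03 (interval 0.80 to 1.26), made of a Dex ratio of -0.08 in siControl and 0.95 in siArglu1 cells. Its longest annotated transcript has 15482 nt and 76 exons, while the mappable length behind the deposited values was 2998 nt.

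Abl2 (chromosome 1), a cytoplasmic tyrosine kinase that regulates the actin cytoskeleton, was at 16.4, 15.1, 4.91 and 9.17 CPM. Its difference was 1.02 (0.79 to 1.25). The next value, 0.91 (0.52 to 1.33), belonged to ENSMUSG00000079351, which has no symbol and no match in the annotation used here. Abl2 and that gene are the values just inside and just outside the limit of 1.

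The next genes of this end were of unrelated kinds. Atp7a (chromosome X), the copper-transporting ATPase that is mutated in Menkes disease, was at 18.3, 18.1, 4.54 and 8.03 CPM, with a difference of 0.83 (0.60 to 1.06). Srcap (ENSMUSG00000053877, chromosome 7), the ATPase of the complex that deposits histone variant H2A.Z, was at 34.4, 31.8, 9.55 and 15.6 CPM, with a difference of 0.82 (0.66 to 0.99). A separate entry of the count table with the symbol Srcap, ENSMUSG00000090663, had 4260, 4753, 3725 and 5380 reads and a difference of 0.06, so the value of the gene is uncertain. Hcn4 (chromosome 9), a hyperpolarization-activated cation channel that carries the pacemaker current of the heart, differed from the others in level. It was at 13.3, 14.1, 9.96 and 18.7 CPM, so siArglu1 Dex was the highest library, and its difference was 0.82 (0.63 to 1.01).

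The remaining 6 of the 12 had differences from 0.78 to 0.82 by the same course. Igsf9b is an adhesion molecule of inhibitory synapses, Dennd4c a Rab exchange factor, Hmcn2 an extracellular matrix protein of the hemicentin family, Lcor a ligand-dependent nuclear receptor corepressor and Pdpr the regulatory subunit of pyruvate dehydrogenase phosphatase. Tnrc18 is a large nuclear protein and was the best counted of the 12, with 9400 reads in all. It was at 44.1, 36.4, 20.2 and 29.1 CPM, with a difference of 0.80 (0.68 to 0.93). Lcor was at 12.1, 10.5, 4.70 and 7.03 CPM, and its interval was 0.53 to 1.03.

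**Figure D4:**
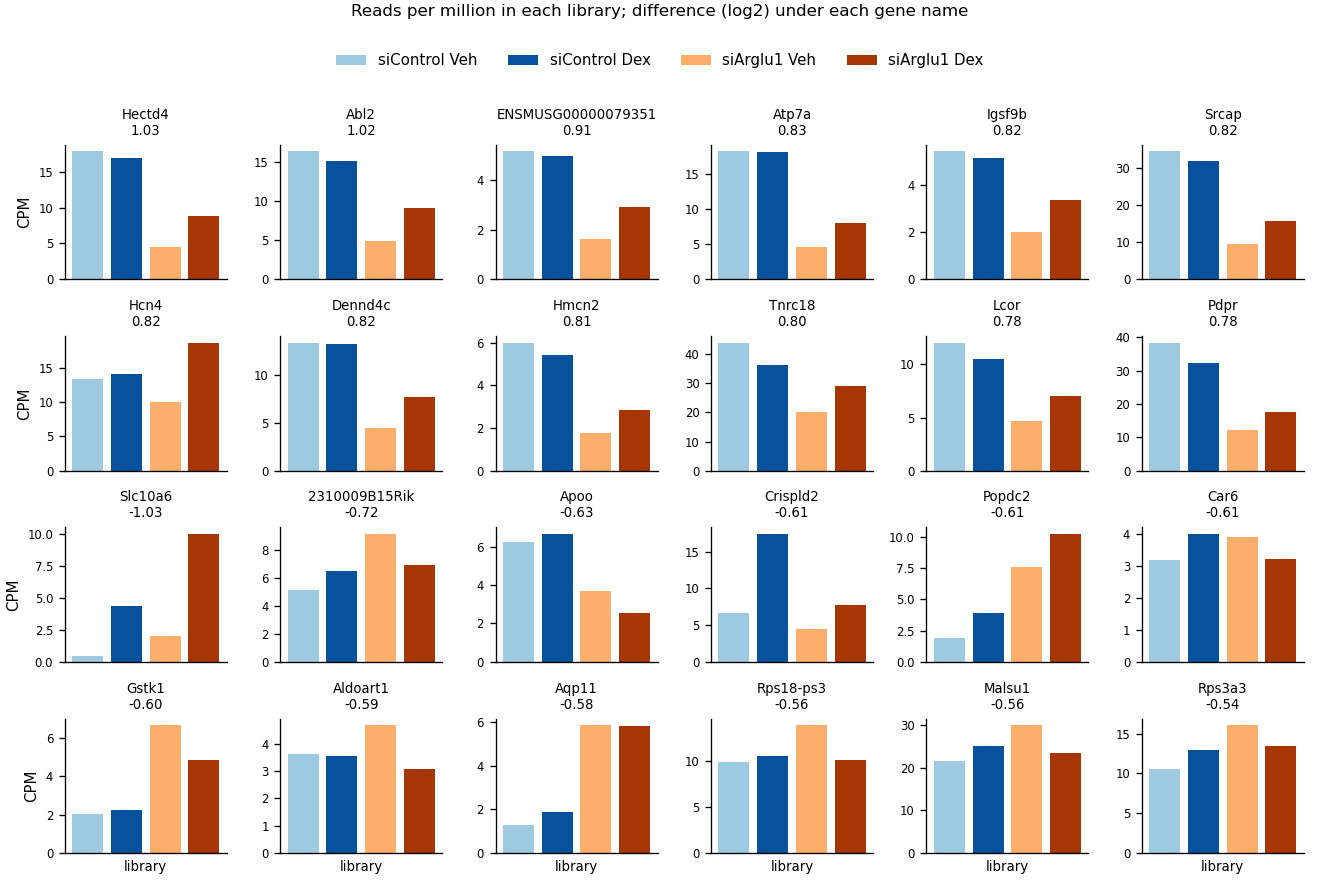
Bars give CPM in the 4 libraries (1 library a bar, no replicates) for the 12 highest genes (upper 2 rows) and the 12 lowest (lower 2 rows) with 1000 or more reads, with the difference (log2) above each panel. In 11 of the 12 highest the 2 siArglu1 bars are below both siControl bars, and Hcn4 is the exception.

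The 12 genes with the most negative difference were of 2 kinds. In 3, Slc10a6, Crispld2 and Popdc2, the level was higher with Dex in both states and the ratio was smaller after knockdown. In the other 9 the Dex ratio was negative in siArglu1 cells, from -0.61 to -0.01, and between -0.02 and 0.57 in siControl cells. The median mappable length of the 12 was 1274 nt, with 8 under 2 kb. All 12 counting intervals were below 0.

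Slc10a6 (ENSMUSG00000029321, chromosome 5), a sodium-dependent transporter of sulfated steroids, had the lowest value. It was at 0.418 and 4.32 CPM in siControl Veh and Dex and at 2.03 and 9.98 CPM in siArglu1 Veh and Dex, from 28, 310, 132 and 864 reads. The difference of -1.03 (-1.74 to -0.44) therefore goes with the highest level of the 4 in siArglu1 Dex: the siControl Veh level was low, and the Dex ratios were 3.33 and 2.29. Its length of 2075 nt is below the median of 2823 nt, and removing the length trend left -0.98. The next gene outside the limit on this side was 2310009B15Rik at -0.72 (-0.99 to -0.46).

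Crispld2 (chromosome 8), a secreted protein and a common glucocorticoid target, was at 6.67, 17.4, 4.51 and 7.70 CPM, with Dex ratios of 1.38 and 0.77 and a difference of -0.61 (-0.87 to -0.36). Popdc2 (chromosome 16), a membrane protein of striated muscle, was at 1.88, 3.89, 7.58 and 10.2 CPM, with Dex ratios of 1.04 and 0.43 and a difference of -0.61 (-0.97 to -0.26). Both genes were Dex-induced in each state, Crispld2 from a lower level after knockdown and Popdc2 from a higher one. With the length trend removed Crispld2 moved to -0.70, as its transcript of 4132 nt is long for this end.

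The other genes of this end were higher or level with Dex in siControl cells and lower or level in siArglu1 cells. Malsu1 (chromosome 6), which acts in assembly of the mitochondrial ribosome, was at 21.7, 25.04, 29.96 and 23.5 CPM, with a difference of -0.56 (-0.69 to -0.42) that became -0.36 without the length trend. Gstk1, a glutathione transferase of mitochondria and peroxisomes, was at 2.03, 2.24, 6.68 and 4.84 CPM. Apoo, a subunit of the mitochondrial contact site complex, was with Crispld2 the only gene of the 12 that was lower after knockdown in Veh, at 6.24, 6.67, 3.70 and 2.54 CPM. Aqp11, an aquaporin of intracellular membranes, was higher after knockdown in Veh by 2.19 on the log2 scale, and its siArglu1 levels of 5.85 and 5.82 CPM hardly differed. Car6 is a secreted carbonic anhydrase and Aldoart1 an aldolase A retrogene, whose reads are uncertain for its likeness to Aldoa.

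Rps18-ps3 and Rps3a3 closely resemble the ribosomal protein genes Rps18 and Rps3a1. Rps18-ps3 had a mappable length of 4 nt and Rps3a3 none, so their reads are uncertain. In all, 236 genes with 1000 or more reads had a mappable length under 0.25 of their longest transcript. Hectd4, Apoo, Aqp11 and Rps18-ps3 are among them, so their lengths and their values without the length trend are less certain. Without the 236, 65 genes were past 0.58 upwards and 7 downwards.

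Junction reads, which are a part of the same libraries, gave the sign of the read counts in 55 of 62 named genes with 20 or more of them in each library. The 7 others, which include Ptger4 (0.65 against -0.23 from reads) and Myl9 (0.25 against -0.30), were all negative by reads and positive by junction reads. Signs thus differed only among genes with a negative difference. The 7 are not among the genes at the ends. Of the 12 highest genes 7 had summed junction reads of 20 or more in each library, and all 7 were positive, with Hectd4 at 0.98 from 801, 771, 292 and 689 junction reads and Abl2 at 0.84 from 131, 148, 35 and 88. Of the 12 lowest 3 could be read this way, and all 3 were negative, with Gstk1 at -0.62 and Malsu1 at -0.42. These ends were picked for large values from the same reads.

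The share of splicing events that differed could not be told from that of all genes at this depth. Among 27477 cassette exon events of good coverage in genes with 1000 or more reads, the change of percent spliced in (PSI) with Dex differed between the states by 15 or more in 255, a share of 0.928% (exact binomial interval 0.818% to 1.05%). In the 68 higher genes 1 of 116 events passed, 0.862% (0.0218% to 4.71%). In the 8 lower genes 0 of 2 did, which limits nothing. None of the 24 named genes held such an event. Only 26 of the 68 higher and 2 of the 8 lower genes had any event of good coverage, so this absence says little about the named genes.

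Removing the length trend brought other genes to the ends. On the higher side, Klf7 (a Krüppel-like factor of neurons) and Zfp966 (Gm8898 in the table) joined Hectd4, Abl2, Hcn4 and ENSMUSG00000079351. Klf7 was at 8.54, 7.02, 6.22 and 8.62 CPM, with a difference of 0.75 (0.50 to 1.01) that became 0.88. On the lower side, Camta1 (a calmodulin-binding transcription activator), Smim20 (a small protein of cytochrome c oxidase assembly) and Papss2 (an enzyme that makes the sulfate donor PAPS) joined Slc10a6, Crispld2 and Popdc2. Camta1, with a length of 8400 nt, went from -0.40 to -0.64. Papss2 was at 4.05, 6.80, 7.50 and 8.79 CPM, with Dex ratios of 0.75 and 0.23 and a difference of -0.52 (-0.80 to -0.24).

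Known targets of GR did not move in one direction. Of 33 genes in a list of such targets 22 were compared, and 14 had a difference above 0 and 8 below, with a median of 0.04 against 0.01 over all genes and 52.0% above 0. Fkbp5, a co-chaperone of GR, had the same Dex ratio in both states, at 89.9, 144, 95.7 and 153 CPM, with a difference of 0.00 (-0.06 to 0.07). Sgk1, the serum- and glucocorticoid-regulated kinase, was at 76.3, 121, 87.7 and 149 CPM, with a difference of 0.10 (0.03 to 0.16). For Tsc22d3, Ddit4 and Errfi1 the values were 0.15, 0.02 and 0.02. Counting intervals lay below 0 for 5 of the 22, which were Crispld2 (-0.61), Mt1 (-0.54), Arrdc2 (-0.25), Cdkn1a (-0.24) and Rhob (-0.10). They lay above 0 for 4, which were Per1, Irs2, Tsc22d3 and Sgk1. Over all 12497 genes compared, the interval lay below 0 in 2836 and above 0 in 3068, so such intervals were common in any case.

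Per1 and Irs2 were the targets with the largest positive values among those with 1000 or more reads. Per1, a repressor of the circadian clock, was at 11.6 and 43.4 CPM in siControl Veh and Dex and at 5.06 and 29.3 CPM in siArglu1 Veh and Dex. Its Dex ratio was 1.90 and then 2.53, a difference of 0.63 (0.43 to 0.84), although the level reached in Dex was lower after knockdown. By chromatin immunoprecipitation, after a shorter Dex treatment, the study reports that recruitment of GR to a Per1 response element was diminished by knockdown. Irs2, an insulin receptor substrate, was at 138, 158, 54.4 and 92.0 CPM, with a difference of 0.56 (0.49 to 0.63). Hif3a, a hypoxia-inducible factor subunit and one of the 8 below 0, had 0, 38, 2 and 54 reads. Its fitted value depends on the prior count and is not printed, though it is counted here and among the 44 genes at -1 or less. With 3 reads in that library's place the median of the list was 0.06.

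Dex-responsive genes were also chosen by the mean of both Dex ratios, a choice added after the values were seen, since a choice by either ratio alone uses a part of the difference. With a mean of 0.5 or more and 1000 or more reads, 42 genes qualified. Their median difference was 0.01, with 23 above 0 and 19 below. Their median mappable length was 4147 nt, against 2823 nt over all genes with 1000 or more reads. Without the length trend their median difference was -0.06. Of their counting intervals 13 lay above 0 and 13 below, against 28.3% and 27.0% of all genes with 1000 or more reads. Of the 42, 2 were past 0.58 upwards and 3 downwards, against 0.663% and 0.0780% of all genes with 1000 or more reads. No gene had a mean of -0.5 or less. Picking genes by one state alone gave medians of -0.12 (41 genes, siControl ratio of 0.5 or more) and 0.53 (107 genes, siArglu1 ratio of 0.5 or more), where the value that picks the genes is itself a part of the difference.

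Among the 42, Prcp, Tgfb3 and Il4ra had smaller Dex ratios after knockdown beside Slc10a6, Crispld2 and Popdc2. Prcp, a lysosomal carboxypeptidase, was at 7.79, 16.7, 10.3 and 15.5 CPM, with a difference of -0.51 (-0.71 to -0.31). Tgfb3, a growth factor of the TGF-β family, was at 5.02, 9.68, 10.6 and 14.7 CPM, with a difference of -0.48 (-0.72 to -0.25). Il4ra, a cytokine receptor chain, had -0.34 (-0.60 to -0.08). Larger Dex ratios were seen in Per1, in Lama5 (a laminin chain, 0.58, 0.38 to 0.79), in Tenm4 (a teneurin, 0.48, 0.31 to 0.65) and in Th, tyrosine hydroxylase. Th was at 4.52, 8.31, 1.90 and 4.52 CPM, with a difference of 0.37 (0.01 to 0.74). Without the length trend Lama5 and Tenm4 were at 0.28 and 0.14.

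A list of 19 genes joins those the study called for Dex in either state with others it marked as responding in siControl cells. Its median difference was -0.51, with 13 below 0 and 6 above, and as it was chosen on these libraries it is no independent evidence of its direction. All 7 genes called in siControl cells had a difference below 0 and all 3 called in siArglu1 cells one above 0, where the Dex ratio that picked a gene is a part of its difference. Of the 19 only 6 had 1000 or more reads. Those were Slc10a6, Crispld2, Prcp, Per1, Tns2 (Tenc1 in the table) and Ctso. Tns2, a focal adhesion tensin, had -0.23 (-0.52 to 0.06), an interval that holds 0. Ctso, a cathepsin, was at 13.3, 29.4, 26.3 and 50.1 CPM, with -0.21 (-0.35 to -0.07).

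The other 13 of the 19 rested on few reads. Pnmt, the enzyme that makes adrenaline from noradrenaline, had 1, 89, 1 and 1 reads. Its difference of -5.65 was the most negative of all genes compared, yet the exact interval ran from -12.97 to 0.50. Single reads in siControl Veh and in both siArglu1 libraries leave the Dex ratios poorly defined, that of siArglu1 cells almost undefined. The study also measured Pnmt by RT-qPCR and reports that knockdown abolished its induction by Dex. It reports a significantly smaller induction of Trim63 after knockdown as well. By chromatin immunoprecipitation it reports less GR at the Pnmt response element after knockdown. Pla2g4d, a cytosolic phospholipase, had 3, 44, 8 and 433 reads and a difference of 1.78 (-1.03 to 3.69). Asic5 had 9, 45, 36 and 76 reads and a difference of -1.46 (-2.92 to -0.30). Zfp811 had 61, 25, 40 and 74 reads, lower with Dex in siControl and higher in siArglu1 cells, and a difference of 1.82 (0.94 to 2.80). Trim63, Gpat2, Rufy4, Abcg8, Tdo2, Cxcl10 and Lrp4 had intervals that hold 0, while those of Fam13a (-1.42 to -0.01) and Prr9 (0.19 to 1.86) did not.

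Among the 2245 genes under 1000 reads, many of the 8 at each end had libraries with few reads. Beside Pnmt, the lowest 8 were Prdm8, Gm9885, Plekhb1, 4930432K21Rik, Cltrn (Tmem27 in the table), Dnaic1 and Sphk1. Prdm8, a histone methyltransferase-like repressor of neurons, had 14, 32, 35 and 22 reads and -2.08 (-3.49 to -0.88). Sphk1, a sphingosine kinase, had 13, 32, 20 and 21 reads and -1.47 (-2.96 to -0.13). The exact interval lay below 0 in 7 of the 8. The median mappable length of the 8 was 2097 nt, near the 2168 nt of all genes in this band.

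The 8 highest in this band were Cdcp1, 4932442E05Rik, A3galt2, Rhox4e, Lrp1b, Zfp811, Pla2g4d and Rhpn1. Cdcp1, a transmembrane adhesion protein, had 52, 29, 1 and 6 reads, the largest difference of all genes compared at 2.43, and an interval that holds 0 (-0.06 to 8.66). Lrp1b, a giant lipoprotein receptor, had 50, 55, 1 and 8 reads and 1.83 (-0.45 to 8.05). A3galt2, a glycosyltransferase, had 33, 20, 14 and 44 reads and 1.98 (0.78 to 3.37). Rhox4e belongs to a family of near-identical copies and had a mappable length of 28 nt, so its reads are uncertain. The exact interval lay above 0 in 5 of the 8. Over all genes of this band the counting interval lay above 0 in 7.22% and below in 3.25%, and as both ends were picked for large values nothing is read from their own intervals.

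The ribosomal, oxidative phosphorylation and proteasome lists, all of short genes, had negative values. Of 81 cytosolic ribosomal protein genes 78 had a difference below 0, with a median of -0.28, and of 80 genes of oxidative phosphorylation 78 were below 0, with a median of -0.26. Of 36 proteasome subunits 35 were below 0, with a median of -0.20. Over all 12497 genes 48.0% were below 0. These lists have median mappable lengths of 402, 710 and 1354 nt, and their median Dex ratios were 0.06, 0.03 and 0.03 in siControl cells. The mitochondrially encoded and histone lists are as short, with median lengths of 821 and 827 nt, but had medians of -0.04 and -0.11, with 7 of 12 and 10 of 15 below 0. Examples of the first lists are Psma5, a proteasome subunit at 6.66, 7.66, 6.03 and 4.86 CPM with -0.51 (-0.79 to -0.24), and Cox7c of cytochrome c oxidase at -0.38 (-0.54 to -0.23).

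Lists of long genes lay on the other side. All 45 entries of chromatin remodelers and histone methyltransferases compared, of which 2 are Srcap, had a difference above 0, with a median of 0.28, and all 20 DNA damage kinases and large repair proteins did, with a median of 0.29. Of 21 large ubiquitin ligases 19 were above 0, with a median of 0.24. Over all genes 52.0% were above 0. Chd7, a remodeler of neural crest development, was at 57.6, 53.8, 43.2 and 63.0 CPM, with a difference of 0.64 (0.55 to 0.74). Atm, the kinase that senses DNA double-strand breaks, was at 53.7, 50.5, 20.2 and 27.7 CPM, with 0.54 (0.42 to 0.66). Ubr4, a ubiquitin ligase of the N-degron pathway, was at 465, 464, 258 and 372 CPM, with 0.53 (0.49 to 0.56).

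Receptors, chaperones and coregulators of the corticosteroid pathway also had mostly positive values. Of 23 compared 18 were above 0, with a median of 0.24 and a median length of 6693 nt. Crebbp, a histone acetyltransferase and coactivator, was at 56.1, 49.9, 22.7 and 34.0 CPM, with a difference of 0.75 (0.64 to 0.87) that was 0.54 without the length trend. Ncoa2, a p160 coactivator of GR, was at 37.9, 35.1, 15.3 and 22.5 CPM, with 0.66 (0.52 to 0.80) and 0.53. Nr3c1, the gene of GR itself, was at 43.4, 40.2, 35.3 and 38.0 CPM, with a difference of 0.21 that was 0.03 without the trend. The chaperones Hspa8 and Ptges3 were below 0, at -0.12 and -0.17.

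With the length trend removed, the medians of the ribosomal, oxidative phosphorylation and proteasome lists were -0.08, -0.07 and -0.09. Those of the chromatin, repair, ubiquitin ligase and receptor lists were 0.04, 0.06, 0.03 and 0.03, and the list of 19 Dex genes was at -0.53. In the first 3 lists 16 of 81, 9 of 80 and 4 of 36 genes were then above 0, so most stayed below. In the next 4 lists 32 of 45, 15 of 20, 12 of 21 and 15 of 23 were above 0. Over all 12484 genes with a length, 6126 were. The remaining lists lay nearer 0. Before the trend was removed, the medians were 0.15 for 16 genes of the circadian clock, 0.13 for 22 interferon-stimulated genes, 0.01 for 22 immediate early genes and -0.02 for 30 genes of cell cycle and DNA replication. They were -0.04 for 12 mitochondrially encoded genes and for 21 targets of SRF, -0.06 for 16 p53 targets and for 32 splicing regulators with RS domains, -0.10 for 23 genes of the integrated stress response and -0.11 for 15 histone genes. Within these lists Srrm2 (a spliceosome scaffold, 0.41, 0.38 to 0.44), Myh9 (non-muscle myosin, 0.46, 0.44 to 0.49) and Mkl2 (a coactivator of SRF, 0.66, 0.50 to 0.82) were long genes with positive values. Of 22 interferon-stimulated genes 3 were past 0.58 upwards and 5 downwards, against 2.97% and 1.51% of all genes with 75 or more reads, and none of the 8 was among the 11 with 1000 or more reads.

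**Figure D5:**
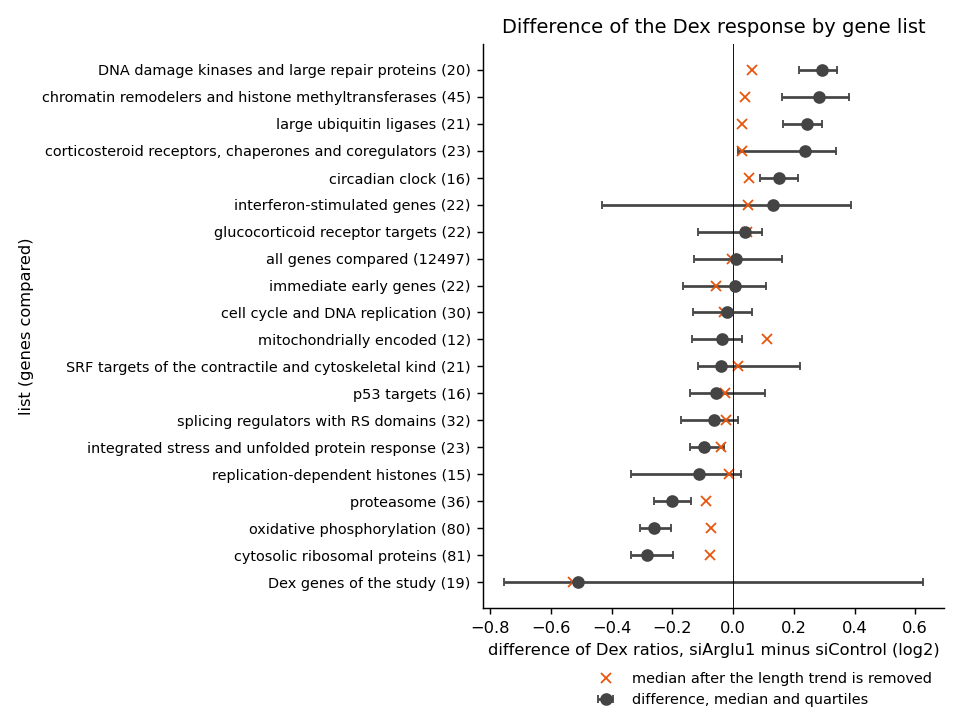
Median (points) and quartiles (bars) of the difference (log2) in each gene list, and the median after the length trend was removed (crosses), with the number of genes compared in brackets. The 4 lists at the top lie at 0.24 to 0.29 and the ribosomal, oxidative phosphorylation and proteasome lists at -0.20 to -0.28, with crosses of these 7 between -0.09 and 0.06. The mitochondrially encoded list has its cross at 0.11.

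Promoters were searched because Dex acts through DNA elements and Slc10a6 was the one well-counted gene past the limit downwards. RefSeq promoters (250 bases before to 50 after a start, build GRCm38.p6) were matched by symbol. The palindrome GNACA and TGTNC with any 3 bases between them was in 156 of 32851 promoters (0.475%), searched on both strands, and AGAACA, one arm of the response element, which can overlap it, was in 19.0%. Of the 10 matched genes among the 12 highest, none held the palindrome and 2 held AGAACA, Srcap and Dennd4c. Of the 8 matched among the 12 lowest, Slc10a6 held both.

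Over the 134 named genes with 1000 or more reads, of which 105 matched, 3 had a promoter with the palindrome (3 of 127 promoters, 2.36%). All 3 belong to the 42 genes with a mean Dex ratio of 0.5 or more, of which 37 matched (3 of 51 promoters, 5.88%). The 42 are part of the 134, some genes have several promoters, and no link was tested. The promoters of the 3 genes are shown 5′ to 3′ on the gene's strand with both motifs, on either strand, in capitals (for Sgk1 at 1 of 6 starts). That of Abl2, a gene of the higher end with no match to either motif, follows. A match to these letters is a description and not a site, and its absence says only that the letters are not in this window.
Slc10a6 (chr5:103629354-103629653, minus strand): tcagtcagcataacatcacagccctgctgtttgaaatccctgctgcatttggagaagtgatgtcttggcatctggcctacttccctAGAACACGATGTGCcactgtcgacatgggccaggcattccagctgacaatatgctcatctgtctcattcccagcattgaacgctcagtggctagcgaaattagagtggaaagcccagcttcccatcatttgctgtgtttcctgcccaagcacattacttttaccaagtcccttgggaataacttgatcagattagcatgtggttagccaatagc
Sgk1 (chr10:21993640-21993939, plus strand): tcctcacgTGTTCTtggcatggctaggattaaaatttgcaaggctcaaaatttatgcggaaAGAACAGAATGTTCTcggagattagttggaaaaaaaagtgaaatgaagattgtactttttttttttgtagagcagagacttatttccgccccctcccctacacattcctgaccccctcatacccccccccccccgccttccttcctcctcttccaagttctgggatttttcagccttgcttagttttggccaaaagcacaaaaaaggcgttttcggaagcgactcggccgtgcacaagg
Map3k6 (chr4:133240568-133240867, plus strand): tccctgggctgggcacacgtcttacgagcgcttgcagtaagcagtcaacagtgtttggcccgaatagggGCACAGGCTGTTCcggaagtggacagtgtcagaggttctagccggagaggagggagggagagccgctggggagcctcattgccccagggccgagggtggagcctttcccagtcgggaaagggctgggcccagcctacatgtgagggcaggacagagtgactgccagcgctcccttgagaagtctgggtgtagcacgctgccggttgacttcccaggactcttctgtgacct
Abl2 (chr1:156558537-156558836, plus strand): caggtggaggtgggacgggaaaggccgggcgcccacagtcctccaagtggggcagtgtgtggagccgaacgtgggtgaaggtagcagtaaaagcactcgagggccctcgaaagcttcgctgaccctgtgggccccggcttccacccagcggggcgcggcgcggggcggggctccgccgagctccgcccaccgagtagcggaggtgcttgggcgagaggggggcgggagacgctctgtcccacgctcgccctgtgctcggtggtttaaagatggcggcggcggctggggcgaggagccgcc

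The 3 genes with the palindrome spanned a wide range of differences. Slc10a6 was at -1.03, Sgk1 at 0.10 and Map3k6, a kinase of the MAP kinase cascades, at -0.19 (-0.35 to -0.02), from 15.2, 23.3, 13.2 and 17.7 CPM. Crispld2, Popdc2 and Per1 held neither motif in the windows searched.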

How the data were processed

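PolyA RNA of N2a cells was sequenced in 4 libraries, 1 for each combination of siControl or siArglu1 with Veh or Dex. The deposited count of reads per gene and the corrected RPKM (cRPKM, per mappable kilobase) were made by the authors. PSI, in percent, and junction reads of splicing events were also deposited by the authors. Bowtie and mm9 are named in the submitters' processing notes, and for the annotation and settings the sources used here give nothing. The library kit does not mark strand. The 2 unnamed ratio columns of the authors were not used.

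Read counts were scaled by TMM (edgeR 4.0.16, R 4.3.3), with a prior count of 1 scaled to library size, and genes with 75 or more reads were kept. Counting intervals at the 95% level used the variance of the log counts for all genes, and exact conditional intervals for named genes. Mappable length was computed from reads and cRPKM for 12484 genes. Longest transcript, exons and GC came from GENCODE M21 by gene ID, which matched 12317 genes, and no mm9 coordinates are given. The length trend was a lowess fit (span 0.3, statsmodels 0.14.6). Cassette exons counted if their coverage was graded OK or better in all 4 libraries. The trend, count and interval steps were tested on simulated data. Other tools were Python 3.11.15, numpy 2.4.6, pandas 2.3.3, scipy 1.17.1 and matplotlib 3.10.9.

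With 1 library a group no p-value was computed. Named were the 12 highest and 12 lowest genes with 1000 or more reads, the 8 and 8 below 1000 reads, the 6 and 6 with the length trend removed, the genes nearest the limit of 1, all genes of the list of 19 Dex genes and up to 4 genes of each other list. Other Dex-responsive genes, known GR targets, Nr3c1 and the chaperones were named after their values were seen. The members and lists were chosen with earlier results of these data known. Alternatives changed the scaling (DESeq2 1.42.0 size factors, upper quartile, total reads), prior count, minimum of reads, threshold, length measure and GC. Some marker genes are not reported here.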

Additional observations from a re-analysis of the deposited data

Results flagged for a closer look

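In 8 of the 24 genes named at the ends of the set with 1000 or more reads, the Dex ratio lay on one side of 0 in siControl cells and on the other in siArglu1 cells, with the counting interval of each ratio off 0. In 4 the ratio was positive only in siControl cells. Their differences were -0.72 for 2310009B15Rik, -0.61 for Car6, -0.56 for Malsu1 and -0.54 for Rps3a3. In the other 4 it was positive only in siArglu1 cells, with 0.78 for Pdpr, 0.78 for Lcor, 0.80 for Tnrc18 and 0.82 for Srcap, whose other entry in the count table was at 0.06. Over all 10252 genes with 1000 or more reads 13.3% had such opposite ratios, and the 24 were picked for a large difference of these same ratios. Over all genes with 1000 or more reads, rho of the Dex ratio with mappable length was -0.22 in siControl and 0.67 in siArglu1 cells, also of opposite sign. None of these differences between the states was tested, as each state is 1 pair of libraries.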

How the results depend on the processing

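The number of genes past the limit depended on the choices around low counts. Against 81 higher and 44 lower genes with 75 or more reads, there were 48 and 23 with a prior count of 5, 371 and 189 at a threshold of 0.58, 16 and 5 at 1.5, and 52 and 22 when the counting interval also had to lie off 0. There were 1234 and 1231 without a minimum of reads, 20 and 2 with a minimum of 200, and 24 and 5 with at least 20 reads in every library. Against 2 higher and 1 lower with 1000 or more reads, the lower count was 0 by total reads, with a prior count of 5 and without the length trend. At 0.58 there were 68 and 8, and at 1.5 or with a minimum of 5000 reads 0 and 0.

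Without the length trend the median of the receptor and coregulator list was 0.030, of ribosomal proteins -0.077, of oxidative phosphorylation -0.073, of the proteasome -0.088, of chromatin remodelers 0.038, of ubiquitin ligases 0.030 and of DNA repair 0.062. The mitochondrially encoded list changed sign by more than the median counting interval of its genes, from -0.04 to 0.11 without the trend and to 0.0042 by total reads. Smaller changes of sign without the trend were seen for the SRF targets (-0.04 to 0.02) and the immediate early genes (0.01 to -0.06). At 25 PSI 27 events passed in all genes and 0 in the higher genes. Of 638 alternative values of named genes, none crossed from past the limit upwards to past it downwards, or the reverse. Only genes past the limit could be counted in this way, and most named genes are not, so this count shows little. Smaller changes of sign, which can occur in genes near 0, were not counted. Of the 638, 65 moved by more than their counting interval, 54 of them on removal of the length trend. The cause was not tested.

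No paired analysis was possible because each group is 1 library and no test was run, and for the same reason no replicate could be left out. Other scalings moved the median of all genes by at most 0.04. The first limit is that 3 cultures were pooled in each library, so spread between cultures is not seen. Another is that the siArglu1 libraries differ from the siControl ones in reads on long transcripts and in the ratio of 5′-most to 3′-most junction reads. A gene under 200 reads also had a median counting error of 0.56, too large to show a 2-fold difference.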
